A study of Mus musculus with 24 samples.

Results

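The 7 genes described here are Eps8, Rnf150, Fam214a, Abcd2, Arrdc3, Samd4 and Kmo, out of 11590 genes in the deposited count table. They were picked because their RNA was lower with lysophosphatidic acid (LPA) in wild-type macrophages by far more than in macrophages lacking the receptor GPR35. The effect of LPA in wild-type (WT) cells, its effect in Gpr35-deficient (KO) cells and the difference between those effects therefore chose the genes. Their values in those comparisons are given as a description, with no test. All 7 were found in the table by symbol, and all 7 passed the filter on low counts, as did every other gene of the table.

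The libraries were poly(A) RNA-seq of bone marrow-derived macrophages, which are cells grown from marrow with the growth factor M-CSF. All marrow came from male C57BL/6 mice. The age, the kind of Gpr35 allele and any pooling of animals are not given in the labels, and these do not say whether replicates came from separate animals, so p-values measure the spread between these samples, which may be technical. On day 7 of culture the cells received an agent for 4 h or none. The groups were KO with 10 µM LPA (KO LPA), KO with 10 ng/mL lipopolysaccharide (KO LPS), untreated KO (KO Cont), WT LPA, WT LPS and untreated WT (WT Cont), each with 4 libraries, 24 in all.

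GPR35 is a G protein-coupled receptor of macrophages and gut epithelium, and both LPA and kynurenic acid, a product of tryptophan breakdown, have been reported to act on it. LPA is a signalling phospholipid that also has receptors of its own. LPS, a component of the bacterial cell wall, acts through TLR4 and switches macrophages to an inflammatory programme. The 7 genes have unrelated roles. Eps8 encodes a protein that caps and bundles actin filaments and takes part in Rac signalling. Rnf150 encodes a membrane protein with a RING domain, the domain that marks ubiquitin ligases. Arrdc3 encodes an alpha-arrestin, an adaptor that links membrane proteins to NEDD4-family ubiquitin ligases. Abcd2 encodes a transporter of very-long-chain fatty acids in the peroxisomal membrane. Samd4 encodes an RNA-binding protein whose fly counterpart, Smaug, represses translation of bound mRNAs. Kmo encodes kynurenine monooxygenase, which diverts kynurenine away from kynurenic acid. Fam214a, also called Atosa, is the least studied of them.

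Library totals were 15167683 to 21461866 counts in KO and 31985119 to 46697165 counts in WT, and each KO library names 1 sequencing lane where each WT library names 2, so depth and lane cannot be told apart from genotype. Gpr35 had 0 to 5 counts in every KO library, against 54 to 133 counts in the 8 WT libraries with LPA or none and 8 to 17 counts in the WT LPS libraries. All 10 macrophage markers were measured, and their summed level was 31500 to 48000 CPM (counts scaled to library size with TMM factors) over the 24 libraries. Of the markers of dendritic cells only Batf3 of 10 was in the table, of T, NK and B cells only Cd79b of 10, of erythroid cells and megakaryocytes only Pf4 of 9, and of mast cells and basophils 0 of 7. Summed neutrophil markers were 293 to 685 CPM, from 10 of 11 markers. The summed level of 6 of 10 stromal and endothelial markers was 123 to 165 CPM in KO LPS libraries, against 13.9 to 25.7 CPM in KO Cont libraries, and 170 to 208 CPM in WT LPS and 35.8 to 42.6 CPM in WT LPA libraries, against 21.0 to 27.3 CPM in WT Cont libraries; its part in the results was not tested. Pf4 was at 117 to 187 CPM in WT LPA and 158 to 185 CPM in WT LPS libraries, against 74.5 to 93.3 CPM in WT Cont libraries. In KO it was at 90.1 to 109 CPM with LPA and 184 to 212 CPM with LPS, against 82.8 to 101 CPM untreated. The part of Pf4 in the results was not tested. Replicate 3 of WT LPA stood apart, with a chi-square per degree of freedom of 32.9 to 77.3 against the other WT LPA libraries, which differed from each other by 14.8 to 30.3. In this bulk RNA, fewer cells of a kind and less RNA per cell cannot be told apart.

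The genes lie on 7 chromosomes, so none neighbours another. In GRCm38.p6, by the RefSeq gene table, Eps8 lies at chr6:137477245-137649397 on the minus strand, Abcd2 at chr15:91145871-91192007 on the minus strand, and Arrdc3 at chr13:80883384-80896042 on the plus strand. Also on the plus strand are Rnf150 at chr8:82863266-83091271, Fam214a at chr9:74952867-75032468, Samd4 at chr14:46882965-47105817 and Kmo at chr1:175632193-175660853. The spans ran from 12.7 kb for Arrdc3 to 228.0 kb for Rnf150, and their median was 79.6 kb, against 22.4 kb over the 11562 genes of the table with a span. The strand setting of the counting is not given in the labels, and exons of Rnf150 and Samd4 overlap antisense transcripts (Gm45449 and 2810457G06Rik) that the table does not list, so their counts are uncertain to that extent. Kmo overlaps the span of Fh1, but no exon of Fh1.

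Promoter windows were searched for shared short motifs because the 7 genes were lower together in WT LPA libraries. The RefSeq promoter table held 4 of the 7 genes (Kmo, Fam214a, Arrdc3 and Samd4), in 9 windows. The motif of PU.1, a transcription factor that defines the macrophage lineage, was searched as GAGGAAGT on both strands and was found in windows of Kmo and Fam214a. It was present in 3.20% of all 32851 promoter windows and in 3.55% of the 11693 windows of genes in the table. The bases before a start in the promoter table for each of these genes are chr1:175631943-175632192 and chr9:74952630-74952879 on the plus strand of GRCm38.p6. They are shown with the PU.1 letters and, in Fam214a, the E-box letters CACGTG in capitals.
Kmo: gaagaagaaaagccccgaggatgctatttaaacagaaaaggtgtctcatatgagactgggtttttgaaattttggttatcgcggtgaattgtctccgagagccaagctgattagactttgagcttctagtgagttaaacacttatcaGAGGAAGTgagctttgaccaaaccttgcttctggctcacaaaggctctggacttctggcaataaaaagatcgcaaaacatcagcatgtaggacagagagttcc
Fam214a: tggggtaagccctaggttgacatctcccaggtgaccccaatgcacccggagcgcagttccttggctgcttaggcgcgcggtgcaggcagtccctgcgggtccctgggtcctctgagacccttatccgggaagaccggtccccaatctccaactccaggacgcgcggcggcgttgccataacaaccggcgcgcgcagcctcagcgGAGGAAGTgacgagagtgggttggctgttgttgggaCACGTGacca
The PU.1 letters began at position -103 of the Kmo start and at -46 of this Fam214a start, and the E-box at -10 of the same Fam214a start. That start lies past the beginning of the Fam214a span given above, 74952867, so the E-box is inside the span. The E-box was in all 3 Fam214a windows, of which the first and second overlap and share that match, in 7.15% of all windows and in 10.2% of the windows of genes in the table. The GC box GGGCGG was found in windows of Arrdc3, Fam214a and Samd4, in 35.7% of all windows and in 62.5% of the windows of genes in the table. The FOXO motif GTAAACA, which 3.65% of all windows hold, was in none of the 9 windows of these genes on either strand. Neither was the AP-1 motif, searched as TGACTCA (5.20% of all windows). The cAMP response element TGACGTCA (1.79%), the C/EBP motif TTGCGCAA (0.183%) and the NF-kB motif GGANTTTCC (1.25%) were likewise not found on either strand. The TATA box, read as TATAAA, was not found there either (13.6% of all windows). In the windows of genes in the table the shares were 2.55% for FOXO, 3.69% for AP-1 and 3.10% for the cAMP response element. They were 0.308% for C/EBP, 1.36% for NF-kB and 7.03% for the TATA box. No motif searched overlaps another in the printed windows. These matches are letters in a window and say nothing of binding.

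Levels of the 7 genes differed widely in untreated cells. On the RPKM scale, which divides by the gene length in the table, WT Cont means were 13.4 for Rnf150, 12.7 for Arrdc3, 8.02 for Fam214a, 6.30 for Abcd2, 2.18 for Eps8, 2.16 for Samd4 and 1.24 for Kmo. The log2 difference of KO Cont from WT Cont was not tested for these genes. It was above 0 for 6 of 7, at 0.38 ± 0.20 for Eps8, 0.20 ± 0.32 for Fam214a, 0.16 ± 0.20 for Rnf150, 0.11 ± 0.21 for Arrdc3, 0.07 ± 0.15 for Samd4 and 0.02 ± 0.22 for Abcd2 (SE), and it was -0.03 ± 0.24 for Kmo. The 4 KO and 4 WT libraries overlapped for each of the 7 genes; of all genes, 1.01% had every KO Cont library above and 1.33% below every WT Cont library.

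**Figure D1:**
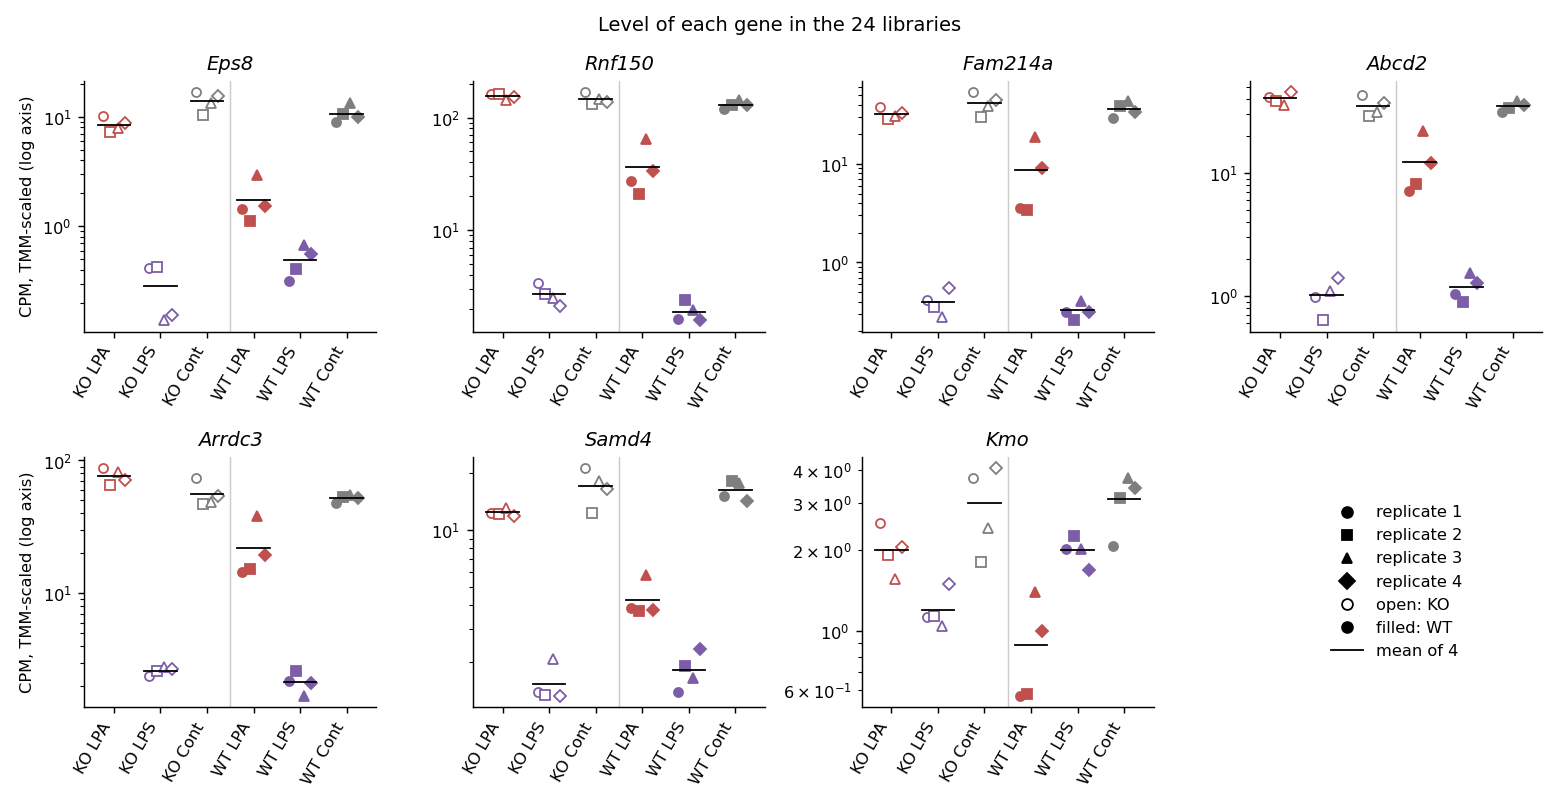
Level of each gene (CPM scaled by TMM factors, log axis) in the 4 libraries of each of the 6 groups, KO at left and WT at right; marker shape gives the replicate number and the bar the mean of 4. WT LPA libraries lie below WT Cont libraries in all 7 panels, LPS libraries are lowest in 6 of them, and in the Kmo panel WT LPA has the lowest mean, 0.883 CPM.

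The cytoskeletal gene Eps8 had the lowest log2 difference with LPA of all 11590 genes in WT cells. It had 10.1, 7.24, 7.93 and 8.80 CPM in KO LPA libraries, against 16.7, 10.4, 13.4 and 15.5 CPM in KO Cont libraries. In WT LPA libraries its level was 1.44, 1.13, 2.92 and 1.52 CPM, against 8.92, 10.7, 13.5 and 9.87 CPM in WT Cont libraries. Both genotypes had every LPA library below every untreated one, but the WT LPA libraries were also far below all KO LPA libraries. The log2 difference between LPA and untreated was -0.72 ± 0.21 in KO and -2.63 ± 0.23 in WT (SE, n = 4 each), so WT LPA cells kept 16.3% of the WT Cont level. Eps8 was the only gene of the 7 whose KO LPA and KO Cont libraries did not overlap, which 4.18% of all genes did in that direction.

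The genes linked to ubiquitin ligases, Rnf150 and Arrdc3, were at or above their untreated level in KO cells given LPA. Rnf150, the highest of the 7 per length in untreated cells, had 162, 161, 144 and 153 CPM in KO LPA libraries, against 167, 132, 145 and 136 CPM in KO Cont libraries. In the WT its level was 27.4, 21.0, 64.0 and 33.5 CPM with LPA, against 118, 128, 144 and 130 CPM without. The KO groups overlapped fully, and the WT groups were apart with replicate 3 of WT LPA the highest of its group. On the log2 scale the LPA difference of Rnf150 was 0.10 ± 0.20 in KO and -1.84 ± 0.21 in WT (SE).

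Arrdc3 had 87.6, 65.0, 81.3 and 71.4 CPM in KO LPA libraries, against 74.3, 47.3, 48.7 and 54.2 CPM in KO Cont libraries. WT LPA libraries held 14.4, 15.3, 38.3 and 19.5 CPM of it, against 47.8, 53.3, 55.4 and 52.0 CPM in WT Cont libraries. Of the KO LPA libraries, 2 were above every KO Cont library and 2 lay below the highest of them, and the WT groups did not overlap. Its log2 difference was 0.44 ± 0.21 in KO, the highest of the 7 genes, and -1.26 ± 0.21 in WT, the WT difference nearest 0 (SE). Its KO LPA mean, 76.3 CPM, was the highest of its 6 group means.

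The peroxisomal transporter gene Abcd2 followed Rnf150 and Arrdc3. In KO LPA libraries it had 41.9, 38.6, 36.1 and 45.3 CPM, against 43.0, 29.1, 31.6 and 37.2 CPM in KO Cont libraries. With LPA the WT libraries held 7.13, 8.17, 21.9 and 12 CPM, against 31.6, 33.7, 38.6 and 35.8 CPM in WT Cont libraries. The KO libraries overlapped and the WT libraries did not. The log2 difference was 0.20 ± 0.22 in KO and -1.51 ± 0.23 in WT (SE).

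Fam214a had the widest relative spread among WT LPA libraries. Its KO LPA level was 37.5, 28.6, 30.3 and 32.6 CPM, against 53.1, 29.8, 38.9 and 44.3 CPM in KO Cont. Its WT LPA level was 3.55, 3.37, 18.7 and 9.05 CPM, against 29.2, 38.6, 43.7 and 33.6 CPM in WT Cont. Replicate 3 of WT LPA was again the highest, yet it stayed below each WT Cont library. The log2 difference was -0.37 ± 0.33 in KO and -2.08 ± 0.34 in WT (SE). Without replicate 3 of WT LPA the WT value was -2.77.

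The RNA-binding protein gene Samd4 had the least scatter, with a pooled SD within groups of 0.26 in log2 CPM. KO LPA libraries had 12.3, 12.2, 13.1 and 11.9 CPM, against 21.2, 12.3, 18.1 and 16.4 CPM in KO Cont libraries. WT LPA libraries had 3.87, 3.75, 5.76 and 3.78 CPM, against 15.1, 18.1, 17.6 and 14.3 CPM in WT Cont libraries. Only the lowest KO Cont library, replicate 2, fell within the KO LPA range, and WT LPA was apart from WT Cont. The log2 difference was -0.46 ± 0.15 in KO and -1.93 ± 0.16 in WT (SE).

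Kmo, the gene of the kynurenine branch enzyme, was the lowest per length in untreated cells. It had 2.53, 1.92, 1.56 and 2.05 CPM in KO LPA libraries, from 32 to 51 counts each, against 3.74, 1.80, 2.42 and 4.06 CPM in KO Cont libraries. In WT LPA libraries it had 0.569, 0.579, 1.39 and 0.995 CPM, from 23 to 50 counts each, against 2.07, 3.14, 3.74 and 3.43 CPM in WT Cont libraries. The KO groups overlapped, with replicates 2 and 3 of KO Cont below the highest KO LPA library, and the WT groups did not. The log2 difference was -0.59 ± 0.27 in KO and -1.82 ± 0.26 in WT (SE).

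Over the 7 genes the median log2 difference with LPA was -0.37 in KO, with 3 genes above 0 and 4 below, and -1.84 in WT, against a median of -0.01 over all genes in each genotype. WT LPA cells kept 16.3% to 42.0% of the WT Cont level, and KO LPA cells had 60.9% to 136% of the KO Cont level. All 4 WT LPA libraries lay below all 4 WT Cont libraries for 7 of 7 genes, which 16.9% of all genes did; the genes were chosen on this comparison. The LPA effect in KO minus that in WT was 1.93 for Rnf150, 1.91 for Eps8, 1.71 for Fam214a and Abcd2, 1.70 for Arrdc3, 1.46 for Samd4 and 1.23 for Kmo, in log2 units. KO LPA libraries were above WT LPA libraries without overlap for 7 of 7 genes, against 17.7% of all genes, a difference that follows from how the genes were chosen, at 228% (Kmo) to 486% (Eps8) of the WT LPA mean. Other genes had differences as large. With the WT difference nearest 0 among the 7 (-1.26, Arrdc3) and the smallest difference between genotypes (1.23, Kmo) as limits, 28 further genes lay inside both, 13 of them at a mean of 2 CPM or more. Slco2b1, an organic anion transporter gene, had a WT log2 difference of -1.77 and a KO one of 0.06. Gpr34, a lysophospholipid receptor gene, had -1.60 in WT and 0.03 in KO. Hpgd, which encodes a prostaglandin-degrading enzyme, had -2.14 in WT and -0.61 in KO.

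**Figure D2:**
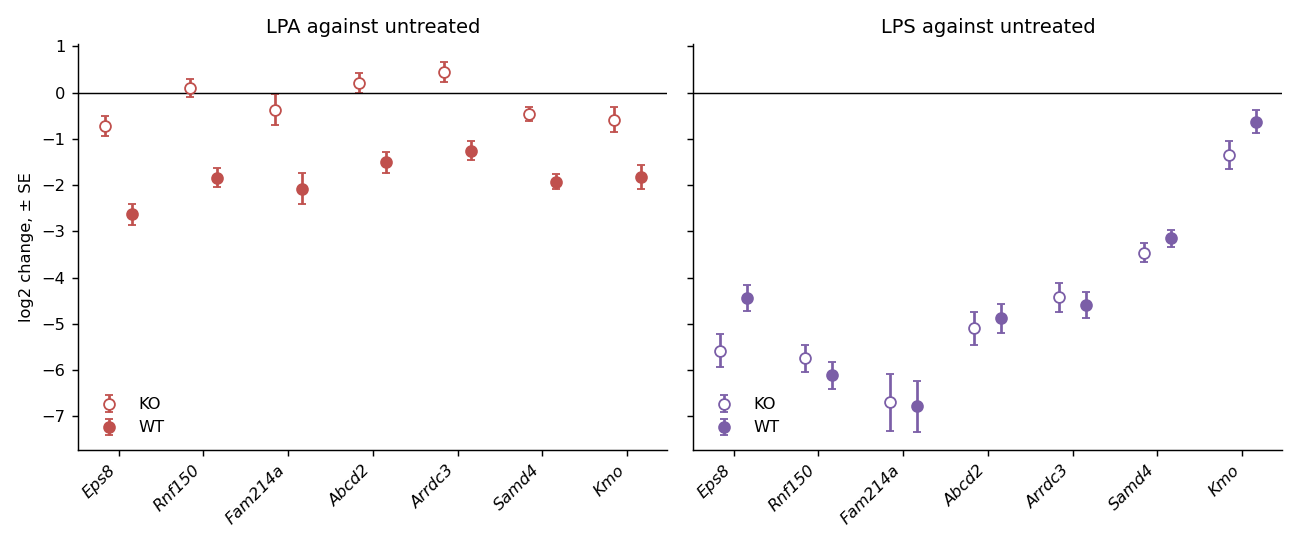
Log2 change of each gene with LPA (left panel) and LPS (right panel) against untreated cells of the same genotype, open points KO and filled points WT, bars ± SE from the edgeR fit. LPA changes span -0.72 to 0.44 in KO and -2.63 to -1.26 in WT, while LPS changes of KO and WT lie close to each other for most genes.

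The size of the LPA difference varied together across the genes within a genotype. Replicate 3 of WT LPA was the highest of its 4 libraries for 7 of 7 genes. The same library was the highest for 71.6% of the 2442 genes that fell with LPA in WT, and for 37.1% of all genes, so the 7 genes share this with most genes that fell. Its total of 31985119 counts was the lowest of the WT libraries; the part of depth was not tested. Without it the WT LPA differences were larger for all 7 genes, at -2.97 for Eps8, -2.25 for Rnf150, -2.77 for Fam214a, -1.94 for Abcd2, -1.67 for Arrdc3, -2.10 for Samd4 and -2.11 for Kmo. In KO, replicate 2 of KO Cont was the lowest untreated library for 7 of 7 genes, and for 50% of the same 2442 genes and 31.2% of all genes. Set against the untreated library of the same number, Fam214a differed by -3.03, -3.50, -1.22 and -1.89 in WT replicates 1 to 4, the widest range of the 7. The same differences for Samd4 were -1.95, -2.26, -1.60 and -1.91 in WT, the narrowest range. For Eps8 they were -0.73, -0.52, -0.75 and -0.81 in KO and -2.61, -3.21, -2.19 and -2.67 in WT. Arrdc3 was higher with LPA in 4 of 4 KO pairs, by 0.24 to 0.74, and lower in 4 of 4 WT pairs, by 0.53 to 1.79 on the log2 scale.

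**Figure D3:**
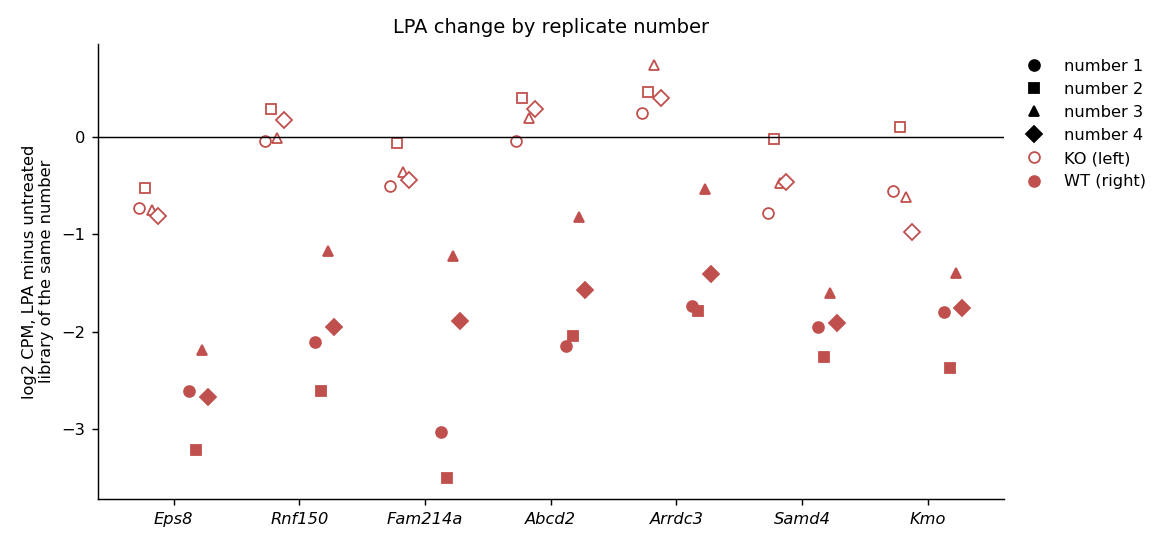
Log2 CPM of each LPA library minus the untreated library of the same genotype and replicate number, for the 7 genes, open points KO and filled points WT. Number 3 (triangles) has the smallest difference in WT for every gene, from -0.53 for Arrdc3 to -2.19 for Eps8.

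LPS lowered all 7 genes in both genotypes, and 6 of them to levels below those of WT cells given LPA. The LPS libraries did not choose the genes, but these comparisons share the untreated libraries that did. With edgeR's quasi-likelihood test and Benjamini-Hochberg adjustment, 7 of 7 genes fell in KO and 7 of 7 in WT, against 43% of all genes in KO and 43.6% in WT; the call of Kmo in WT rested on single libraries. Most of the table changed with LPS in either direction, at 82.3% of genes in KO and 84.2% in WT. A log2 fall of 4 or more was seen for 5 of 7 genes in each genotype, against 0.733% of all genes in KO and 0.785% in WT. Such falls were not particular to the 7. For the 28 further genes inside the LPA limits above, the WT log2 change with LPS ran from -6.17 to -0.60. It was -6.14 for Gpr34, -5.72 for Slco2b1 and -4.71 for Hpgd. The median LPS change was -5.10 in KO and -4.60 in WT, against medians over all genes of -0.05 in KO and -0.04 in WT.

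Fam214a was nearly lost. It had 0.419, 0.353, 0.277 and 0.549 CPM in KO LPS libraries, from 4 to 7 counts each, and 0.315, 0.259, 0.411 and 0.317 CPM in WT LPS libraries, from 7 to 11 counts each. Every LPS library was far below every untreated one, which held 29.2 CPM or more. It fell by 6.70 ± 0.62 in KO and by 6.78 ± 0.55 in WT on the log2 scale (SE; edgeR adjusted p = 2.8e-09 in KO and 3.5e-10 in WT). Only 1 gene of the table fell further in WT.

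Eps8 had 0.419, 0.424, 0.139 and 0.157 CPM in KO LPS libraries, from 2 to 6 counts each, and 0.315, 0.407, 0.673 and 0.563 CPM in WT LPS libraries, from 9 to 18 counts each. KO replicates 3 and 4 were low and KO replicates 1 and 2 lay within the WT range. Its log2 change was -5.58 ± 0.35 in KO and -4.45 ± 0.28 in WT (SE; edgeR adjusted p = 1e-12 in KO and 9.2e-13 in WT). Rnf150 retained 1.85% of its untreated level in KO and 1.45% in WT, with log2 changes of -5.75 ± 0.30 in KO and -6.11 ± 0.29 in WT. Abcd2 changed by -5.10 ± 0.36 in KO and -4.88 ± 0.31 in WT, from 9 to 18 counts in each KO LPS library and 24 to 41 in each WT LPS library. Arrdc3 changed by -4.43 ± 0.31 in KO and -4.60 ± 0.28 in WT. The adjusted p of these genes from edgeR was at most 3.4e-11 in KO and 4.1e-12 in WT.

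Samd4 fell less. It had 1.40, 1.34, 2.08 and 1.33 CPM in KO LPS libraries, from 17 to 30 counts each, and 1.40, 1.92, 1.65 and 2.36 CPM in WT LPS libraries, from 40 to 67 counts each. All of these lay below its WT LPA and its untreated libraries. Its log2 change was -3.46 ± 0.20 in KO and -3.15 ± 0.18 in WT (SE; edgeR adjusted p = 2.3e-13 in KO and 8.5e-14 in WT).

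Kmo differed from the other 6. Its level was 1.12, 1.13, 1.04 and 1.49 CPM in KO LPS libraries, from 15 to 19 counts each, and 2.03, 2.26, 2.02 and 1.69 CPM in WT LPS libraries, from 48 to 61 counts each. WT LPS overlapped WT Cont, whose lowest library had 2.07 CPM, and lay above every WT LPA library. The log2 change with LPS was -1.35 ± 0.30 in KO (edgeR adjusted p = 0.00029) and -0.63 ± 0.25 in WT (edgeR adjusted p = 0.022; SE). The WT call was lost when replicate 3 of WT Cont (adjusted p = 0.07), replicate 4 of WT Cont (0.053) or replicate 4 of WT LPS (0.064) was left out, and when libraries were thinned to equal depth (0.099, log2 change -0.53). KO LPS libraries were all below WT LPS libraries, by a log2 difference of -0.75 ± 0.31, which did not pass the test over all genes (edgeR adjusted p = 0.2); 6.46% of all genes had the 4 KO LPS libraries all below the 4 WT LPS libraries.

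The LPS falls were seen in both genotypes, and a difference between the genotypes was not detectable. The LPS effect in KO minus that in WT was called for 0 of 7 genes by edgeR, and for 0 of 7 at an unadjusted p under 0.05. Of all 11590 genes, edgeR called 0, and 698 had an unadjusted p under 0.05. DESeq2 called 0 of the 7 genes, but it gave Kmo no adjusted p. The difference in LPS effect ranged from -1.14 ± 0.56 for Eps8 to 0.36 ± 0.47 for Rnf150. For Fam214a, with its few counts, it was 0.08 ± 1.29 (SE). Set directly against each other, KO LPS and WT LPS differed for 0 of 7 genes by edgeR, against 330 of all genes (2.85%). Only Kmo had an unadjusted edgeR p under 0.05, at 0.024. Here too DESeq2 called 0 of the 7 genes and gave Kmo no adjusted p. The direct comparison of KO LPS and WT LPS uses no library that chose the genes, and depth and lane go with genotype in it.

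The 6 group means fell in much the same order for 6 of the genes. The 2 untreated groups and KO LPA were highest, WT LPA was in between, and KO LPS and WT LPS were lowest and overlapped each other. For these 6 genes the WT LPA libraries overlapped neither the group above nor the group below in the order. All 8 LPS libraries below all WT LPA libraries, and these below all WT Cont libraries, was a pattern of 11.5% of all genes. The second part of this pattern follows from how the genes were chosen. Of all genes, 1956 had all WT LPA libraries below all WT Cont libraries, and 1333 of those also had the LPS part. The order among the top groups differed. KO LPA was highest for Rnf150 (155 ± 8.22 CPM), Abcd2 (40.5 ± 4.03 CPM) and Arrdc3 (76.3 ± 10.1 CPM), and KO Cont was highest for Eps8 (14.0 ± 2.77 CPM), Fam214a (41.5 ± 9.76 CPM) and Samd4 (17.0 ± 3.69 CPM; SD, n = 4). The KO LPA and KO Cont libraries overlapped for each of these genes except Eps8. Kmo had its own order, with WT Cont (3.10 ± 0.724 CPM), KO Cont (3.00 ± 1.07), KO LPA (2.01 ± 0.400) and WT LPS (2.00 ± 0.233) each overlapping the next, then KO LPS (1.19 ± 0.202) and WT LPA (0.883 ± 0.392), which overlapped each other.

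The genes were also compared by profile, as the root mean square difference between 2 genes in log2 CPM centred over the 24 libraries. Abcd2 and Arrdc3 were the closest pair of the 7, at 0.37, followed by Rnf150 and Fam214a at 0.44, and Fam214a and Kmo were the farthest apart at 2.69. Of 10496 other genes with a mean of at least 2 CPM, the 10 closest to the mean profile of the 7 were Deptor (0.28), Gpr155 (0.30), Arhgap18 (0.33), Kctd12b (0.37), Nat8l (0.38), Hpgd (0.38), Tcp11l2, Epor, Slc26a11 and Mbd4 (0.40 each). Deptor encodes an inhibitor of mTOR, and its log2 change with LPA was 0.05 in KO and -1.43 in WT. For the 10 genes the WT log2 change with LPA ran from -2.14 to -0.86 and that with LPS from -5.28 to -3.71. They were picked on these same libraries, so such changes follow from the choice. Ranked by Pearson correlation over the same libraries, 1 of the 10 (Gpr155) was shared. Single genes had their own neighbours. Samd4 was closest to Nxpe5 (0.30) and Kif3a (0.33), Fam214a to Gpr34 (0.38), Eps8 to Hpgd (0.59), and Kmo to Gatm (0.40) and Arhgap15 (0.42).

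**Figure D4:**
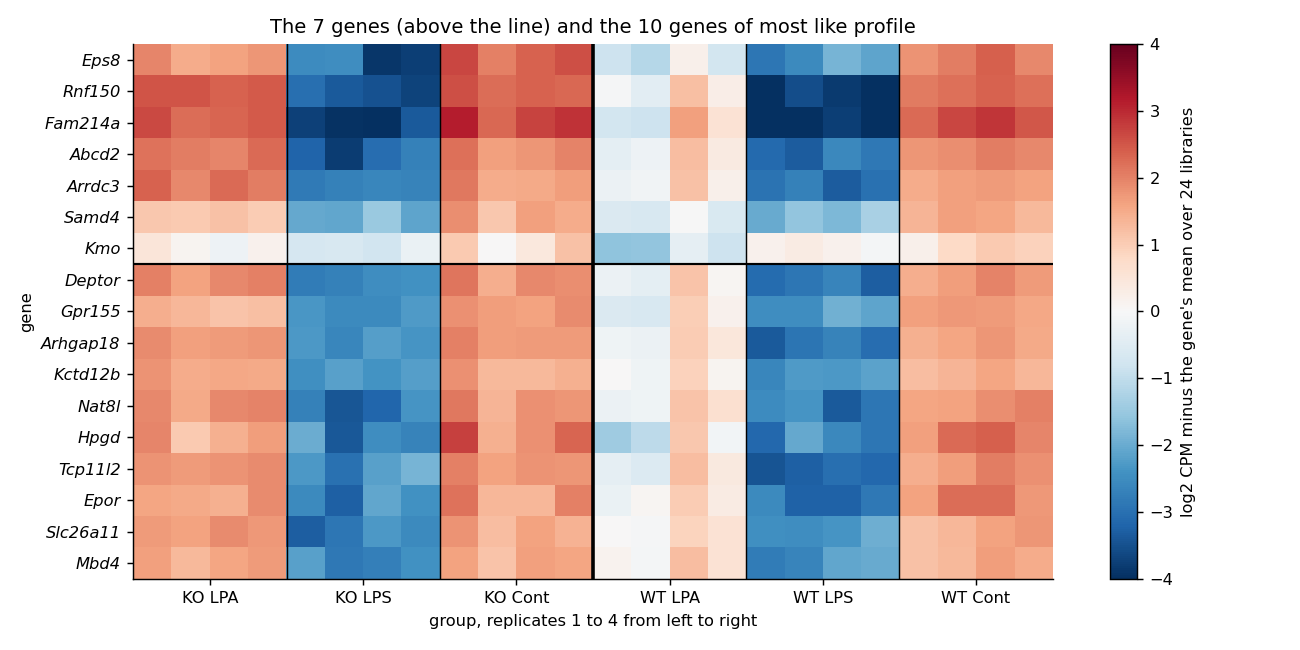
Log2 CPM of each gene minus its mean over 24 libraries, for the 7 genes (above the line) and the 10 genes of closest mean profile, by group with KO at left and WT at right. The third WT LPA column is redder than its neighbours in all rows, and Kmo is the palest of the 7 rows.

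Genes that work with the 7 did not all change with them. The kynurenine list held 15 genes besides Kmo, of which 8 were measured. Ido1, Ido2, Tdo2, Haao, Qprt, Acmsd and Aadat were not in the table. Of the 8 measured genes, LPA raised 2 and lowered 4 in WT, against 23.5% of all genes higher and 21.1% lower. The list median was -0.23, with -0.01 over all genes. With library totals as the only scaling the split over all genes was 2077 higher and 3082 lower, where TMM gave 2723 higher and 2442 lower. Kynu, which encodes kynureninase, changed by -1.57 ± 0.29 (edgeR adjusted p = 0.00018), from 13 to 35 counts in each WT LPA library, against 62 to 82 in each WT Cont library. Kyat1, a kynurenine aminotransferase gene whose product makes kynurenic acid, changed by -1.12 ± 0.19 (edgeR adjusted p = 7.7e-05), from 36 to 63 counts in each WT LPA library, against 110 to 135 in each WT Cont library. Ahr, the gene of a receptor that binds kynurenine, changed by -1.02 ± 0.14 (edgeR adjusted p = 7.5e-06). Slc7a5, a subunit gene of a transporter that carries kynurenine and tryptophan, changed the other way, by 1.12 ± 0.23 (edgeR adjusted p = 0.00075), and its partner subunit gene Slc3a2 by 0.36 ± 0.12 (edgeR adjusted p = 0.016). Kyat3, another aminotransferase gene, changed by -0.39 ± 0.14 (edgeR adjusted p = 0.023), and Afmid (-0.06) and Got2 (-0.07) did not pass. The calls of Slc3a2 and Kyat3 were lost without replicate 1 or replicate 2 of WT LPA. That of Slc3a2 was also lost without replicate 3 of WT Cont, and that of Kyat3 without replicate 2 of WT Cont.

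In KO cells LPA changed 0 of these 8 genes by edgeR, 0 at an unadjusted p under 0.05 and 0 by DESeq2, against 2.62% of all genes (304 genes, or 554 with the replicate number as a block). The LPA effect in KO minus that in WT was called for 4 of the 8, against 28.5% of all genes, at 1.29 ± 0.27 for Kyat1 (edgeR adjusted p = 0.0014), 1.28 ± 0.41 for Kynu (0.024), 1.04 ± 0.20 for Ahr (0.00074) and -1.61 ± 0.37 for Slc7a5 (0.0035). The Kynu difference was lost without replicate 1 or 2 of WT LPA or replicate 1 of KO LPA (adjusted p up to 0.074). LPS raised 2 and lowered 4 of the 8 in KO, and raised 2 and lowered 6 in WT, by edgeR. Of all genes, 43% were lower in KO and 43.6% in WT, and 4554 of 11590 were higher in KO and 4709 in WT. Kyat1 fell by 3.44 ± 0.29 in KO and by 3.95 ± 0.27 in WT, and Slc7a5 rose by 2.61 ± 0.25 in KO and by 2.58 ± 0.23 in WT, on the log2 scale (edgeR adjusted p at most 4.4e-09); Kyat1 had 3 to 5 counts in each KO LPS library and 2 to 7 in each WT LPS library. Ahr fell by 1.27 ± 0.15 in KO and by 0.91 ± 0.14 in WT (edgeR adjusted p at most 2.6e-06). Kynu had a log2 change of -0.51 ± 0.32 in KO, which did not pass (edgeR adjusted p = 0.14), and of -0.60 ± 0.27 in WT (edgeR adjusted p = 0.047), a call lost by DESeq2, with median-ratio size factors and without replicate 1, 3 or 4 of WT Cont or replicate 1 or 2 of WT LPS. The WT call of Kyat3 (-0.35 ± 0.14, edgeR adjusted p = 0.025) was lost with libraries thinned to the smallest and without replicate 2 of WT LPS or of WT Cont.

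**Figure D5:**
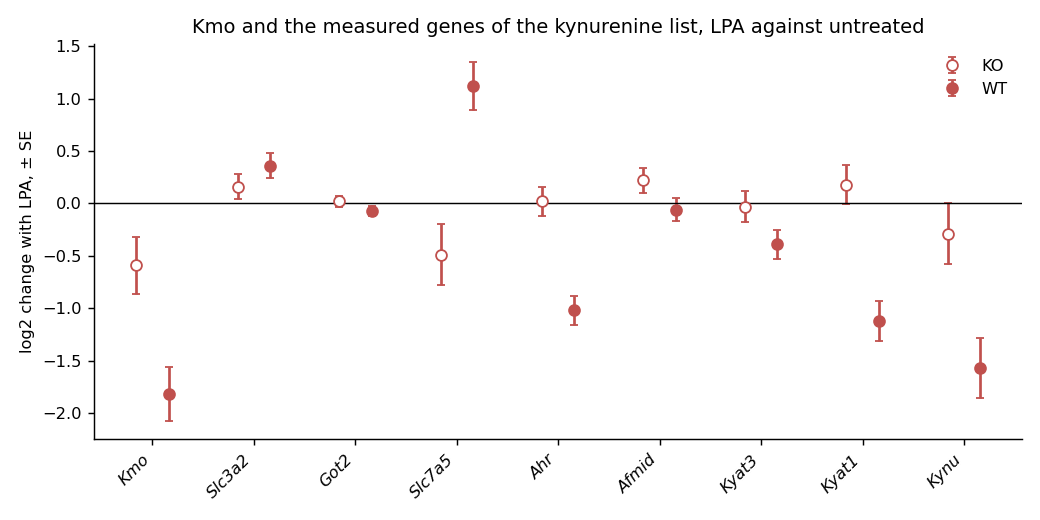
Log2 change with LPA against untreated cells of Kmo and the 8 measured genes of the kynurenine list, open points KO and filled points WT, bars ± SE from the edgeR fit. In WT, Kmo (-1.82), Kynu (-1.57), Kyat1 (-1.12) and Ahr (-1.02) are low and Slc7a5 (1.12) is high; in KO the 8 listed genes lie between -0.49 and 0.22.

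Around Abcd2, LPA in WT raised 1 and lowered 6 of 18 measured genes of peroxisomal transport and beta-oxidation, with a list median of -0.10, where 23.5% of all genes were higher and 21.1% lower. Acox3, a peroxisomal oxidase gene, changed by -0.65 ± 0.11 (edgeR adjusted p = 0.00014), and its LPA effect in KO was higher by 0.81 ± 0.16 (edgeR adjusted p = 0.0013). Hsd17b4, another peroxisomal enzyme gene, had a log2 difference of -0.07 ± 0.06 and did not pass. The 1 gene that was higher, Acaa1a (0.18, adjusted p = 0.028 by edgeR), lost its call without replicate 1 or 2 of WT Cont or replicate 1 or 4 of WT LPA.

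Around Arrdc3, LPA in WT raised 2 and lowered 4 of 13 alpha-arrestin and NEDD4-family genes, with a median of -0.04, against 23.5% of all genes higher and 21.1% lower. Wwp1, a NEDD4-family ligase gene, changed by -0.88 ± 0.11 (edgeR adjusted p = 3.7e-06), and the KO effect was higher by 0.63 ± 0.16 (edgeR adjusted p = 0.0055). Txnip, another alpha-arrestin gene, changed by -0.20 ± 0.07 (edgeR adjusted p = 0.023), a call lost without replicate 1 or 2 of WT LPA or replicate 2 of WT Cont. The ligase genes Itch (-0.04 ± 0.05) and Wwp2 (-0.02 ± 0.04) did not pass. Around Rnf150, 2 of 7 related ligase genes rose and 2 fell with LPA in WT, against the same shares of all genes. Rnf149 was higher by 0.37 ± 0.09 in KO (edgeR adjusted p = 0.017) and by 0.36 ± 0.08 in WT (edgeR adjusted p = 0.0017), and Rnf130 changed by -0.27 ± 0.04 in WT (edgeR adjusted p = 1.7e-05). The KO call of Rnf149 was lost without replicate 1, 3 or 4 of KO Cont or replicate 3 or 4 of KO LPA. Rnf128 (0.63 ± 0.21, edgeR adjusted p = 0.021) lost its WT call without replicate 1 or 2 of WT LPA or replicate 2 or 3 of WT Cont, which left 1 gene of the list that rose.

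Around Eps8, 3 of 10 partner genes rose and 2 fell with LPA in WT, with a median of 0.04, against 23.5% of all genes higher and 21.1% lower. Cyfip1, which encodes a subunit of the actin regulator WAVE complex, was higher by 0.49 ± 0.06 (edgeR adjusted p = 3e-06), and its LPA effect in KO was lower by 0.43 on the log2 scale. Nckap1l, of the same complex, was higher by 0.21 ± 0.05 (edgeR adjusted p = 0.0017), and the Rac genes Rac1 (-0.02) and Rac2 (0.19, edgeR adjusted p = 0.057) did not pass. Around Samd4, 3 of 18 genes of its paralog and the CCR4-NOT deadenylase, which removes poly(A) tails, rose and 4 fell, with a median of 0.00, against the same shares of all genes. Samd4b, the paralog of Samd4, was higher by 0.27 ± 0.07 (edgeR adjusted p = 0.0045). The scaffold gene Cnot1 (0.00 ± 0.04) and the cofactor genes Btg1 (0.16 ± 0.07) and Btg2 (0.07 ± 0.12) did not pass. Without replicate 1 or 2 of WT LPA, 1 gene of this list rose. Fam214b, the relative of Fam214a, was higher by 0.21 ± 0.08 (edgeR adjusted p = 0.038), a call lost without replicate 1, 2 or 4 of WT LPA or replicate 2 or 3 of WT Cont.

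FOXO transcription factors are active when growth factor signalling is low. In WT, LPA raised 3 and lowered 14 of 22 genes listed as their targets, against 23.5% of all genes higher and 21.1% lower, with a median of -0.43. Leaving out single libraries gave 10 to 15 falls. In KO, LPA raised 2 and lowered 1 of the 22, against 2.62% of all genes changed, and the LPA effect in KO was higher than in WT for 10 and lower for 2, against 12.7% of all genes higher and 15.8% lower. Leaving out single libraries gave 8 to 14 higher and 0 to 3 lower, and library totals as the only scaling gave 11 higher and 0 lower. The 1 fall in KO was lost without replicate 1 or 3 of KO LPA or replicate 4 of KO Cont. Falls in this list were not particular to LPA. LPS raised 4 and lowered 15 of the 22 in KO, and raised 3 and lowered 15 in WT. Of all genes, LPS lowered 43% in KO and 43.6% in WT, and it raised 4554 of 11590 genes in KO and 4709 in WT. The list medians with LPS were -1.09 in KO and -1.11 in WT. The 4 genes of highest mean CPM in the list did not all follow. Sesn1, a stress-response gene, changed by -0.53 ± 0.12 in WT (edgeR adjusted p = 0.0017). Bcl2l11, which encodes a protein that promotes apoptosis, changed by -0.26 ± 0.08 (edgeR adjusted p = 0.013), a call lost without replicate 1 or 2 of WT LPA. Tgfbr1, a TGF-beta receptor gene, was higher by 0.66 ± 0.10 in KO (edgeR adjusted p = 0.00049) and by 0.27 ± 0.10 in WT (edgeR adjusted p = 0.034), the WT call being lost without replicate 2 or 3 of WT Cont or replicate 3 or 4 of WT LPA. Cat, the catalase gene, differed by 0.07 ± 0.09 in WT and did not pass.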

How the data were processed

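The authors deposited a table of raw read counts per gene for 24 libraries, with the gene length in bases; per the submitters' processing notes, reads were aligned with STAR 2.5.2a to mm10, and the labels describe stranded mRNA libraries read as pairs of 51 bases. How reads were counted (tool, strand, annotation) is not given in the sources used here. Each column was matched to a sample by the sample's label, and 0 columns were left over. The table held 11590 genes, 9 of them without a symbol, and filterByExpr removed none; its smallest gene total was 170 counts, and genes of lower counts were not analysed here. Chi-square per degree of freedom was 4.09 to 77.3 over the 36 replicate pairs, and no library was a copy.

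The counts were fitted with edgeR 4.0.16 (TMM size factors of 0.739 to 1.18, robust quasi-likelihood F test, a mean per group, 18 residual degrees of freedom) over all libraries, and p-values were adjusted by Benjamini-Hochberg over all genes, with calls below 0.05. The common biological coefficient of variation was 9.91%. CPM, RPKM and log2 CPM (prior count 1) were computed here from the deposited counts and lengths. The SE of a log2 change is its absolute value divided by the square root of its quasi-likelihood F statistic. It is an approximation, so the SE of a difference need not follow from those of its parts, above all at few counts. Precision follows the counts behind each value, and intervals cover the spread between libraries only. Alternatives were DESeq2 1.42.0, other scalings and filters, thinning to 15167683 counts, a fit of the compared groups, a replicate block, and leaving out each library.

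The 7 genes, the gene lists and the cell markers were chosen with earlier results of these data known. Named besides the 7 genes and Gpr35 were the 4 measured genes of highest mean CPM in each list, all measured kynurenine genes, the 10 closest profiles and the nearest genes of each member, and genes that the selection values would also admit; a gene that this rule names is not reported here.

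LPA and untreated libraries of the same replicate number deviated together from their group means over all genes, with correlations of 0.270 to 0.754 in KO and 0.216 to 0.617 in WT, so the numbers were taken to pair them within a genotype. For LPS and untreated libraries of a number the correlations were 0.181 to 0.495 in KO and 0.095 to 0.256 in WT. Libraries of unlike numbers were not compared, so these values do not decide whether the LPS libraries were paired. KO and WT libraries of a number were not taken as paired (-0.546 to 0.171). The main fit did not use the pairing, so the LPA calls and shares given above are without it. With the replicate number as a block, LPA changed 6150 genes in WT, against 5165 without it. The genotype difference of the LPA effect was called for 4328 genes with the block, against 3301.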

Additional observations from a re-analysis of the deposited data

Results flagged for a closer look

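Among the 48 groups of 4 libraries looked at for the 7 genes and Gpr35, 2 held a library whose gap to its neighbour was over 0.829 of the group's range; chance alone gives about 1 such group in 20. Both were for Samd4, at 2.08 CPM in KO LPS replicate 3 and at 5.76 CPM in WT LPA replicate 3.

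The LPA effect differed between the genotypes, by edgeR's test of the difference with adjustment over all genes, for 11 named genes of the lists. The same test called 28.5% of all genes, so such a difference is common in the table. In KO minus WT it was higher for Kyat1 (1.29), Kynu (1.28), Ahr (1.04), Acox3 (0.81), Wwp1 (0.63), Bcl2l11 (0.46) and Tgfbr1 (0.39), in log2 units. It was lower for Slc7a5 (-1.61), Cyfip1 (-0.43), Rac2 (-0.33) and Nckap1l (-0.20). The calls of Rac2, Nckap1l and Tgfbr1 had adjusted p of 0.033, 0.035 and 0.047 and were each lost without some single libraries, as was that of Kynu (0.024).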

How the results depend on the processing

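All 160 recomputed summaries over the 7 genes stayed within the spread between replicates or within 1.5 times the count. These limits are wide. The replicate SD of the median was 0.48 in log2 CPM, and 6 genes called in place of 7 also stayed within the limit. Leaving out single libraries moved the median LPA change to between -0.49 and -0.23 in KO and between -2.11 and -1.66 in WT, the genotype difference of that effect to between 1.52 and 2.14, and the untreated genotype difference to between -0.06 and 0.19; 6 or 7 genes fell with LPS in WT. With the replicate block the LPS change of Kmo was -1.32 in KO and -0.60 in WT (edgeR adjusted p = 8.7e-05 in KO and 0.0051 in WT), and the block changed no call on the 7 genes. It gave 554 genes changed by LPA in KO, against 304 without it, and 0 genes between KO LPS and WT LPS, against 330; numbers do not pair the genotypes. DESeq2 called 461 genes for LPA in KO, 581 between KO LPS and WT LPS and 17 for the genotype difference of the LPS effect, against 304, 330 and 0 by edgeR. Library totals as the only scaling moved the median of all genes to -0.55 with LPS in KO and -0.59 in WT, against -0.05 and -0.04, and gave 381 genes higher and 106 lower in KO LPS, against 80 higher and 250 lower. For Fam214a, thinning gave a genotype difference of -0.19 in the LPS effect and of 0.00 between KO LPS and WT LPS, and leaving out libraries gave -0.09 to 0.22 for that effect. Cnot1 and Afmid in WT LPA both came to 0.01 after thinning; leaving out single libraries gave -0.05 to 0.03 for Cnot1 and -0.20 to 0.03 for Afmid. Of 3059 values for single genes and lists, 2825 kept their side, 93 lost a call, 8 gained it, 120 moved and 13 changed sign. A count moved if it changed by over 1.5 times, and an untested log2 change if it shifted by more than the replicate SD. The WT LPA changes of Rnf150, Fam214a, Abcd2 and Arrdc3 moved in this way without replicate 3 of WT LPA. The cause was not tested. Depth limits the LPS values of Eps8 and Fam214a (2 to 18 counts per library), and in KO those of Abcd2 (9 to 18), Kmo (15 to 19) and Samd4 (17 to 30).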
